A study of Mus musculus with 33 samples.

Results

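Whole lung of newborn mice in room air was compared between 6 h and 2 h after birth, to find which early changes receded and which genes changed later. The arrays were chosen by their labels: the 3 of lung taken 6 h after birth and the 3 of lung taken 2 h after birth, 6 of 33 arrays in all. Both groups were pups of strain BL/57 as labelled (C57B/6J dams in the methods), born into and kept in 21% oxygen, and the labels give neither group an allele, a drug or a sex. The other room air lungs, set beside them, were taken on fetal day 21 (F21) and at 12 h and 24 h, and lungs of fetuses and pups whose dams were moved into 10% oxygen at the end of gestation, where the pups were then born, and livers in room air (both labelled C57/BL) were taken at F21, 6 h and 2 h, with 3 arrays in every group. The sources used here do not say whether the arrays of a group came from separate pups or litters, so every p-value below measures only a spread between arrays, which may be technical. That spread, and each SE, was pooled over all 24 lung arrays, or all 33 arrays for the liver test. It is not that of the 6 arrays alone. The median SD within a group was 0.419 to 0.480 in 10% oxygen lung and 0.289 to 0.363 in room air lung.

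At birth the lung clears its liquid, fills with air and receives the whole output of the right heart, while its cells meet higher oxygen tension, stretch, and surges of catecholamines and glucocorticoids. Immediate early genes, which encode short-lived transcription factors and signaling inhibitors, are read within minutes of such signals and their transcripts decay quickly, while stress-defence enzymes, lysosomal proteins and structural genes are usually read later. Newborn mice also pass through a period without food before milk is established, in which autophagy, the lysosomal breakdown of the cell's own contents, supplies amino acids.

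The values are signal intensities of Affymetrix MGU74Av2 arrays, in arbitrary units, scaled by the authors to a target of 100 per array. Lung identity was clear in all 6 arrays: Sftpc (surfactant protein C) read 51117 to 60597 at 6 h and 17961 to 19210 at 2 h, while the highest liver signal was 126, and Sftpb, Scgb1a1 and Ager were likewise far above liver, whereas Sftpd (29.3 to 53.5 at 6 h, 44.5 to 72.2 at 2 h) was not. The 2 h arrays stood apart in their upper range. Their highest signal was 17961 to 19210, against 51117 to 60597 at 6 h, 4 to 7 probe sets passed 10000, against 10 to 12 at 6 h, and the BioB spike, bacterial RNA added at a low fixed amount, read 150 to 187, against 277 to 494 at 6 h. The low spike was not particular to 2 h: BioB read 102 to 123 at 12 h and 158 to 197 at 24 h. The highest signals at those 2 times were 33975 to 45559. The part these differences play in the results was not tested; bright genes are therefore given with their change after cyclic loess normalization, which fits a smooth curve of the difference between arrays against brightness. In whole tissue, fewer cells of a type and less RNA per cell cannot be told apart.

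Between 6 h and 2 h, 240 of 6931 tested probe sets passed an adjusted p of 0.05 (3.46%, limma with Benjamini-Hochberg adjustment): 158 were higher at 6 h (2.28%) and 82 lower (1.18%). At an unadjusted p under 0.05 there were 1156. The 6 h and 2 h signals did not overlap for 156 of the 158 and all 82, against 30.5% of all tested probe sets. The 240 were picked for a difference between these same arrays, which itself favours separate groups, so the lack of overlap is no further support. After cyclic loess, 201 passed, 110 higher and 91 lower, and 172 of them were among the 240. Of the brightest 694 probe sets, 71 were called higher and 16 lower with the authors' scaling, against 23 higher and 36 lower after loess, and their median log2 change was 0.22 and -0.04. The number of calls was 66 without 2 h replicate 1, 113 without 2 h replicate 3, 114, 86 and 151 without 6 h replicates 1, 2 and 3, and 177 without 2 h replicate 2.

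**Figure D1:**
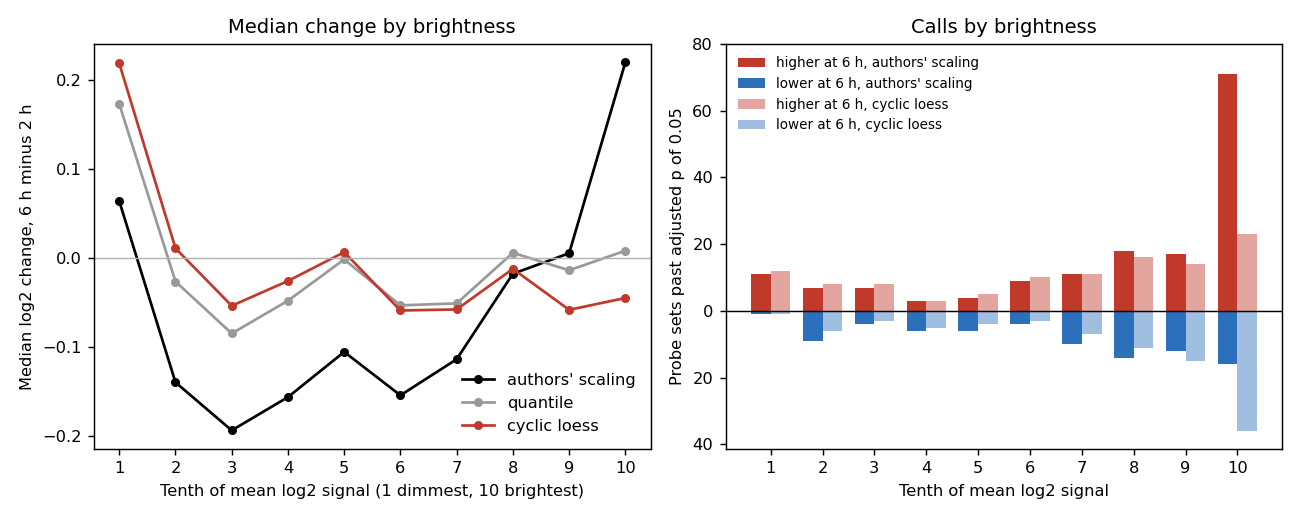
Change between 6 h and 2 h against brightness, with the 6931 tested probe sets split into 10 bins by mean log2 signal (x axis). The left panel plots the median log2 change, 6 h minus 2 h, in each bin under the authors' scaling (black), quantile normalization (grey) and cyclic loess (red); the right panel counts probe sets past the threshold, higher (red, up) and lower (blue, down), dark for the authors' scaling and pale for loess. In the brightest bin 71 probe sets were called higher, against 23 after loess.

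Each changed probe set was then read against the earlier step, 2 h versus F21, in which 294 probe sets passed (4.24%). A change is called receding where the probe set passed both steps in opposite directions and late where it passed only the second. These 2 comparisons share the 2 h arrays, so a high or low 2 h array alone moves both, in opposite directions. Of the 158 rises, 72 were receding falls, 85 were late and 1, S100a8, continued an earlier rise. Of the 82 falls, 30 were receding rises and 52 were late. Late therefore means only that the first step missed the threshold: 12 of the 158 rises and 5 of the 82 falls also passed at 6 h against F21. The 2 h mean was the lowest of the 5 room air means for 146 of the 158 rises and the highest for 80 of the 82 falls. These probe sets were picked for a difference between 6 h and 2 h, which itself favours an extreme mean at either time. The share over all tested probe sets was not counted. Of 102 probe sets higher at 2 h than at F21, 30 passed back, 1 passed on and 71 passed neither way by 6 h. Of 192 lower at 2 h, 72 passed back and 120 did not. Not passing back does not mean that a change persisted: at 6 h, 18 of the 102 and 3 of the 192 still passed against F21. Set against F21 directly, 71 probe sets passed at 6 h (1.02%) and 93 at 12 h (1.34%), and only 5 passed between 12 h and 6 h (0.0721%).

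**Figure D2:**
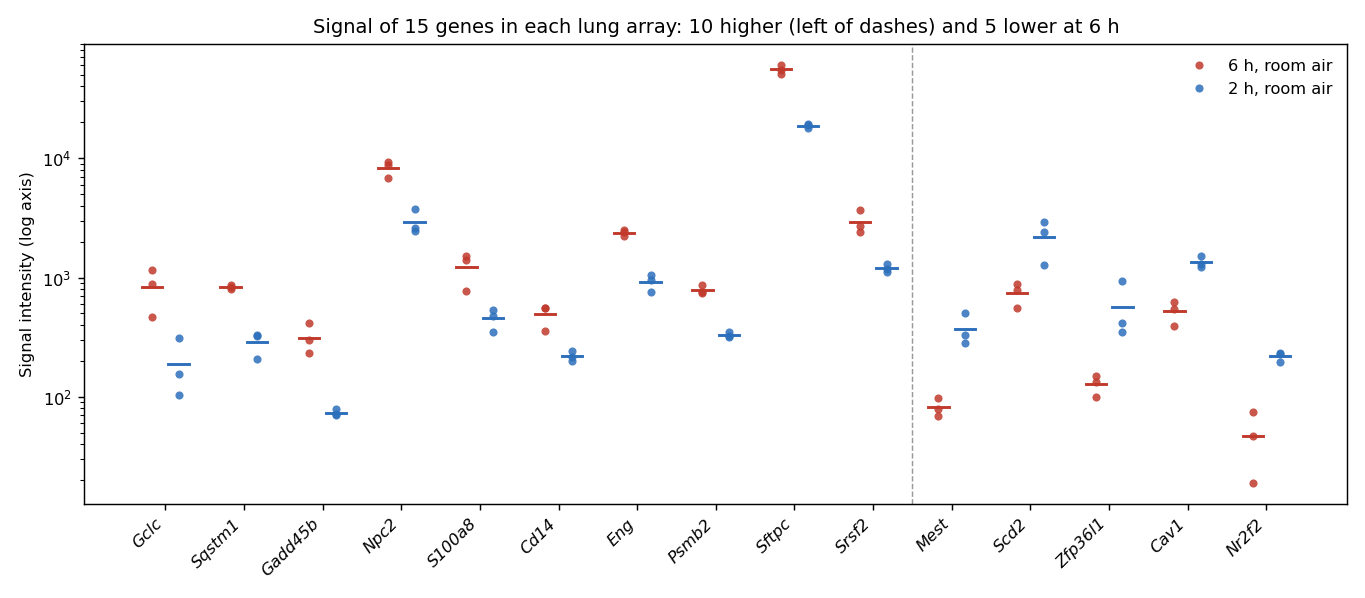
Signal intensity (log axis) of 15 genes in each of the 3 arrays at 6 h (red) and the 3 at 2 h (blue); the short lines are group means. The 10 genes left of the dashes were higher at 6 h and the 5 right of it lower, and in none of the 15 do the groups overlap.

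The late rises included single genes of antioxidant defence, autophagy and the lysosome, given here with the counts of their lists. Promoter sequences of 4 changed genes are shown first, because Lamp1, Ctsd, Gadd45b and Tef all rose and the windows of all 4 hold the E-box letters CACGTG, which are printed in capitals; the set was picked after the matches were known. Each window runs from 250 bases before to 50 bases after a RefSeq start (GRCm38.p6): Lamp1 at chr8:13158911-13159210 on the + strand, Ctsd at chr7:142387778-142388077 on the - strand, Gadd45b at chr10:80929841-80930140 on the + strand, and Tef at chr15:81802423-81802722 on the + strand.
Lamp1: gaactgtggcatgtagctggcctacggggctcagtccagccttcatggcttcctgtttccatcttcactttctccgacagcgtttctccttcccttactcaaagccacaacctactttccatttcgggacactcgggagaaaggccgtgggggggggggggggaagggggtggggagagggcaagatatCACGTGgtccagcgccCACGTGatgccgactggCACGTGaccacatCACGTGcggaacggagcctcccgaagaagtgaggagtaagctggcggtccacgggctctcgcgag
Ctsd: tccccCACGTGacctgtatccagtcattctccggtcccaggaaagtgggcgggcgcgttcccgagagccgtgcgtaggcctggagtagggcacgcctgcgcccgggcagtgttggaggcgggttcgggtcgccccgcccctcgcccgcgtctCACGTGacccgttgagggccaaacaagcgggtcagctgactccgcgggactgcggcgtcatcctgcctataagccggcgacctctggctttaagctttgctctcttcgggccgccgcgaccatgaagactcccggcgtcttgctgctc
Gadd45b: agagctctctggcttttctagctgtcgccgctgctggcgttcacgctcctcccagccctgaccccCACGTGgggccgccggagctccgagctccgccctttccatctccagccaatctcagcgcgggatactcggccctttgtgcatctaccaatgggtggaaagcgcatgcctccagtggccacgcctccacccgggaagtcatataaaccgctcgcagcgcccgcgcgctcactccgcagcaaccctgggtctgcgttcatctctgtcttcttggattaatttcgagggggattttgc
Tef: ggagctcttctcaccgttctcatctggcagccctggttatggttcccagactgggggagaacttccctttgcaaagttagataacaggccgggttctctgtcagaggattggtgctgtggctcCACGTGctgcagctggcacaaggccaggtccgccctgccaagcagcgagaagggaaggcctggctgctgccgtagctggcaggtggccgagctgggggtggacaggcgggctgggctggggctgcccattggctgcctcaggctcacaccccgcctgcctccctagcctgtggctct
CACGTG is its own reverse complement, so both strands are covered. Lamp1 holds it 4 times, its first base at -61, -45, -28 and -15 from the start. It occurs at -245 and -98 in Ctsd, at -185 in Gadd45b and at -127 in Tef. It also occurs in windows of other named genes that rose, and in a window of Dao, which fell. Windows of Klf4, Per1, Dusp1 and Sgk1, whose signals were lower at 6 h without passing, hold it too. Of all 32851 promoter windows 7.15% hold it, and of the 123 windows of named genes (86 of 103 named genes had one) 22 do, but named genes were not drawn evenly from all genes, and a match of letters is not evidence of binding.

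Sqstm1 (p62, the receptor that carries ubiquitin-tagged cargo into autophagosomes) had 799, 871 and 831 at 6 h, against 209, 328 and 322 at 2 h. The 3 arrays at 6 h lay within a narrow range, every one above the highest at 2 h (log2 change 1.57 ± 0.32 (SE), adjusted p = 0.00751). It did not pass between F21 and 2 h (log2 -0.08, adjusted p = 0.936) and averaged 627 at 12 h. Sqstm1 lost its call without 2 h replicate 1 (adjusted p = 0.0657). Gclc, the catalytic subunit of the rate-limiting enzyme of glutathione synthesis, read 1148, 877 and 470.4 at 6 h, against 157, 103 and 309 at 2 h. The groups did not overlap, but the arrays of each differed widely (log2 change 2.19 ± 0.57 (SE), adjusted p = 0.0325), and at 6 h it was also above F21 (log2 2.95, adjusted p = 0.00872). Gclc lost its call without 6 h replicate 1 or 2 or 2 h replicate 1 or 2 (adjusted p = 0.132 at the highest, without 6 h replicate 1).

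Gadd45b, a stress-induced gene of the growth arrest and DNA damage family, had 232, 413 and 298 at 6 h, against 70.9, 78.7 and 72.4 at 2 h. The 2 h arrays were nearly equal and all far below the lowest 6 h array (log2 change 2.05 ± 0.40 (SE), adjusted p = 0.0047), and the call held whichever array was left out. It averaged 182 at F21 and 170.3 at 12 h, and neither 2 h (log2 -1.29, adjusted p = 0.0661) nor 6 h (log2 0.75, adjusted p = 0.477) passed against F21. A second Gadd45b probe set, 161666_f_at, averaged 238 at 6 h and 72.3 at 2 h (adjusted p = 0.0555). Gadd45b was the only 1 of 24 tested p53 targets and growth arrest genes to pass. Cdkn1a, the p53-induced cell cycle inhibitor p21, had 435, 501 and 451 at 6 h, against 259, 272 and 369 at 2 h (log2 change 0.64, adjusted p = 0.54). Atf4, the transcription factor of the amino acid and endoplasmic reticulum stress response, averaged 819.5 ± 87.0 at 6 h and 448 ± 74.8 at 2 h (SD, n = 3; log2 change 0.88, adjusted p = 0.0343), but the call was lost whichever array was left out, with adjusted p up to 0.126 without 6 h replicate 1.

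The proteasome and ubiquitin list, which also held autophagy and lysosome genes, had 5 of 45 tested members higher at 6 h and none lower, with a median log2 change of 0.22, against 120 higher and 54 lower of 5323 genes and a median of -0.04 over all genes. After loess 3 remained past the threshold. Psmb2, a subunit of the proteasome core, had 747, 862 and 759 at 6 h, against 324, 318 and 349 at 2 h. All 3 arrays at 6 h were above all 3 at 2 h by a wide margin (log2 change 1.25 ± 0.21 (SE), adjusted p = 0.00138), with a loess change of 1.08 (adjusted p = 0.00563), and Psmb2 was a receding fall (-1.14 between F21 and 2 h). The lysosomal membrane protein Lamp1 averaged 3036 ± 323 at 6 h and 1788 ± 71.3 at 2 h (log2 change 0.76, adjusted p = 0.0128) and the lysosomal protease Ctsd 1279 ± 114 at 6 h and 669 ± 60.9 at 2 h (log2 change 0.94, adjusted p = 0.0157). At 6 h neither passed against F21 (log2 0.48 and 0.56, adjusted p = 0.204 and 0.268), and neither passed after loess (log2 0.27, adjusted p = 0.357; log2 0.68, adjusted p = 0.0962). Psmc2, an ATPase of the proteasome cap, had log2 change 1.06, adjusted p = 0.0391. Lamp1 lost its call without 6 h replicate 1 or 2 h replicate 1 (adjusted p = 0.076 at the highest, without 2 h replicate 1). Ctsd lost its call without 6 h replicate 1 or 2 or 2 h replicate 1 (adjusted p = 0.0938 at the highest, without 2 h replicate 1). Psmc2 lost its call without 6 h replicate 1 or 2 or 2 h replicate 1 or 3 (adjusted p = 0.22 at the highest, without 6 h replicate 2).

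Npc2, which carries cholesterol out of the lysosome and is abundant in lung, was chosen after its values were seen. It had 9322, 8765 and 6798 at 6 h, against 2475, 3776 and 2585 at 2 h. Each 6 h array was above every 2 h array (log2 change 1.51 ± 0.25 (SE), adjusted p = 0.00101), the change was 0.86 after loess (adjusted p = 0.0252), and the call held in all 6 fits that left out 1 array. Npc2 did not pass at 6 h against F21 (log2 0.79, adjusted p = 0.137). Fth1, Mt1 and Mt2 were chosen in the same way. Fth1, the iron-storing ferritin heavy chain, averaged 2871 ± 602 at 6 h and 1636 ± 243 at 2 h (log2 change 0.80, adjusted p = 0.0239, but 0.38 after loess with adjusted p = 0.277), and its probe set 161913_r_at averaged 2982 at 6 h and 3707 at 2 h (log2 -0.32, adjusted p = 0.383). The metallothioneins Mt1 and Mt2, which bind zinc and copper, averaged 1444 and 2721 at 6 h, against 699 and 1142 at 2 h. Their groups did not overlap, but neither passed (log2 1.06, adjusted p = 0.137, and log2 1.21, adjusted p = 0.0873), while both were above F21 at 6 h (log2 1.99 and 2.07, adjusted p = 0.00935 and 0.00768). In the metallothionein and antioxidant list Gclc was the only 1 of 44 tested members to pass, against 120 higher and 54 lower of 5323 genes, and the list's median was -0.03. Fth1 lost its call without 6 h replicate 1 or 2 or 2 h replicate 1 or 3 (adjusted p = 0.142 at the highest, without 2 h replicate 1).

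In innate defence 1 of 12 tested neutrophil markers, 1 of 22 macrophage and monocyte markers and none of 20 cytokine, chemokine and acute phase genes rose, against 120 of 5323 genes. S100a8, a calcium-binding protein stored in neutrophils, had 1401, 1509 and 765 at 6 h, against 350, 539.7 and 475 at 2 h. All 6 h arrays exceeded all 2 h arrays (log2 change 1.39 ± 0.28 (SE), adjusted p = 0.00752), after an earlier rise of 1.65 between F21 and 2 h (adjusted p = 0.00206). It stood 3.04 above F21 at 6 h (adjusted p = 8.75e-07), and averaged 145 at F21, 455 at 2 h, 1225 at 6 h, 525 at 12 h and 369.6 at 24 h. S100a8 lost its call without 6 h replicate 2 or 2 h replicate 1 (adjusted p = 0.0657 at the highest, without 2 h replicate 1). Its partner S100a9, chosen after its values were seen, read 565, 526 and 377 at 6 h, against 193, 219 and 219.7 at 2 h, also without overlap but short of the threshold (log2 change 1.20, adjusted p = 0.121). Among neutrophil markers 1 of 12 tested members passed, with a median of 0.60, and the summed signal of all 22 markers on the array was 4627 to 6273 at 6 h and 3006 to 4110 at 2 h.

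Cd14, the co-receptor for bacterial lipopolysaccharide on monocytes and macrophages, had 558, 559.6 and 358 at 6 h, against 218, 243 and 200.1 at 2 h. The 2 h arrays were close together and each below the lowest at 6 h (log2 change 1.13 ± 0.25 (SE), adjusted p = 0.0128), and Cd14 was above F21 at 6 h as well (log2 1.45, adjusted p = 0.00442). Cd14 lost its call without 6 h replicate 1 or 2 or 2 h replicate 1 or 3 (adjusted p = 0.077 at the highest, without 6 h replicate 2). It was the only 1 of 22 tested macrophage and monocyte markers to pass, with a list median of 0.18 and summed signals that overlapped, 6159 to 8800 at 6 h and 5547 to 7751 at 2 h. Slpi, an inhibitor of neutrophil elastase, averaged 107 at 6 h and 23.5 at 2 h (log2 change 2.49, adjusted p = 0.0343) on probe set 92858_at. Its other 2 probe sets were lower at 6 h without a call: 161650_at averaged 259 at 6 h and 265 at 2 h (log2 -0.03), and 162333_r_at 44.6 at 6 h and 74.1 at 2 h (log2 -0.64). Slpi lost its call without 6 h replicate 1, 2 or 3 or 2 h replicate 1 or 3 (adjusted p = 0.192 at the highest, without 2 h replicate 1). Anxa1, a glucocorticoid-induced inhibitor of phospholipase, averaged 960 at 6 h and 313 at 2 h (log2 change 1.43, adjusted p = 0.0481), and lost its call without 6 h replicate 1 or 2 or 2 h replicate 1, 2 or 3 (adjusted p = 0.278 at the highest, without 6 h replicate 1). Among 20 tested cytokine, chemokine and acute phase genes, none passed and the median was 0.30.

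Among the early rises that came down was Zfp36l1, an RNA-binding protein that speeds the decay of AU-rich messages. It had 151, 99.7 and 134 at 6 h, against 419, 943 and 353 at 2 h. Every 6 h array lay below every 2 h array (log2 change -2.04 ± 0.32 (SE), adjusted p = 0.000702), the loess change was the same (-2.04), and the call held whichever array was left out. It had risen by 1.25 between F21 and 2 h (adjusted p = 0.0252) and averaged 219.5 at F21, 572 at 2 h, 128 at 6 h, 153 at 12 h and 191 at 24 h. Of 35 tested immediate early genes, 10 had risen at 2 h over F21 with none lower (list median 0.74), and Zfp36l1 was the only 1 to pass in either direction between 6 h and 2 h (list median -0.26). Over all 6931 tested probe sets, 102 were higher and 192 lower at 2 h than at F21. Between 6 h and 2 h, 120 of 5323 genes were higher and 54 lower (median -0.04). The summed signal of the 40 immediate early genes on the array was 17913 to 21230 at 6 h and 15713 to 28410 at 2 h.

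Several more of these 10, chosen after their values were seen, had lower signals at 6 h that did not pass. Nr4a1, a nuclear receptor induced within minutes by growth factors and catecholamines, read 41.7, 93.1 and 90.7 at 6 h, against 329, 461 and 147 at 2 h. The groups were separate, with a wide spread at 2 h (log2 change -2.0 ± 0.74 (SE), adjusted p = 0.141); its 2 h rise had been 3.66 (adjusted p = 0.00599). Atf3, a stress-induced transcription factor, read 198, 116 and 82.5 at 6 h, against 360.3, 964 and 142 at 2 h, with overlap and 1 high array at 2 h (log2 change -1.57, adjusted p = 0.252). The clock gene Per1 read 168, 178 and 146 at 6 h, against 330.4, 461 and 266 at 2 h (log2 change -1.07, adjusted p = 0.204), and Btg1, an inhibitor of proliferation, 163, 109 and 142 at 6 h, against 259, 273 and 238 at 2 h (log2 change -0.91, adjusted p = 0.115); both without overlap.

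Other early genes, likewise chosen after their values were seen, did not pass between 6 h and 2 h. Dusp1, a phosphatase that switches off MAP kinases, averaged 919 ± 208 at 6 h and 1559.7 ± 765 at 2 h (log2 change -0.68, adjusted p = 0.464), and was still 2.45 above F21 at 6 h (adjusted p = 0.00511). Sgk1, the glucocorticoid-induced kinase that keeps the epithelial sodium channel at the cell surface, averaged 458 ± 169 at 6 h and 605 ± 95.6 at 2 h (log2 change -0.47, adjusted p = 0.717), 2.40 above F21 at 6 h (adjusted p = 0.0198). Ccn2 (connective tissue growth factor) averaged 526 ± 34.2 at 6 h and 365 ± 109 at 2 h (log2 change 0.57, adjusted p = 0.412), 1.92 above F21 at 6 h (adjusted p = 0.00442), whereas Ccn1 had log2 change -0.90, adjusted p = 0.483 and did not pass against F21 at 6 h (adjusted p = 0.409). Errfi1, an inhibitor of the EGF receptor, had log2 change -0.52, adjusted p = 0.65 and at 6 h was 1.77 above F21 (adjusted p = 0.0745). Another Errfi1 probe set, 93974_at, had the opposite sign, with 1136 at 6 h and 949 at 2 h on average (log2 0.23, adjusted p = 0.869). Of the 102 probe sets raised at 2 h, 18 were still past the threshold against F21 at 6 h.

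Klf4, the zinc finger factor at the centre of the study, had 370.5, 321 and 231 at 6 h, against 489.5, 479.8 and 492 at 2 h. All 3 arrays at 6 h were below the 2 h arrays, which were nearly equal, but the difference did not pass (log2 change -0.69 ± 0.47 (SE), adjusted p = 0.506). The rise at 2 h over F21 was 2.47 (adjusted p = 0.00403), and at 6 h the level against F21 was 1.78 (adjusted p = 0.0694). Klf5, a related factor of epithelium and smooth muscle, had 395, 288 and 345 at 6 h, against 228, 217 and 304 at 2 h (log2 change 0.46, adjusted p = 0.349). None of 10 tested Kruppel-like factors passed, and their median was -0.04.

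**Figure D3:**
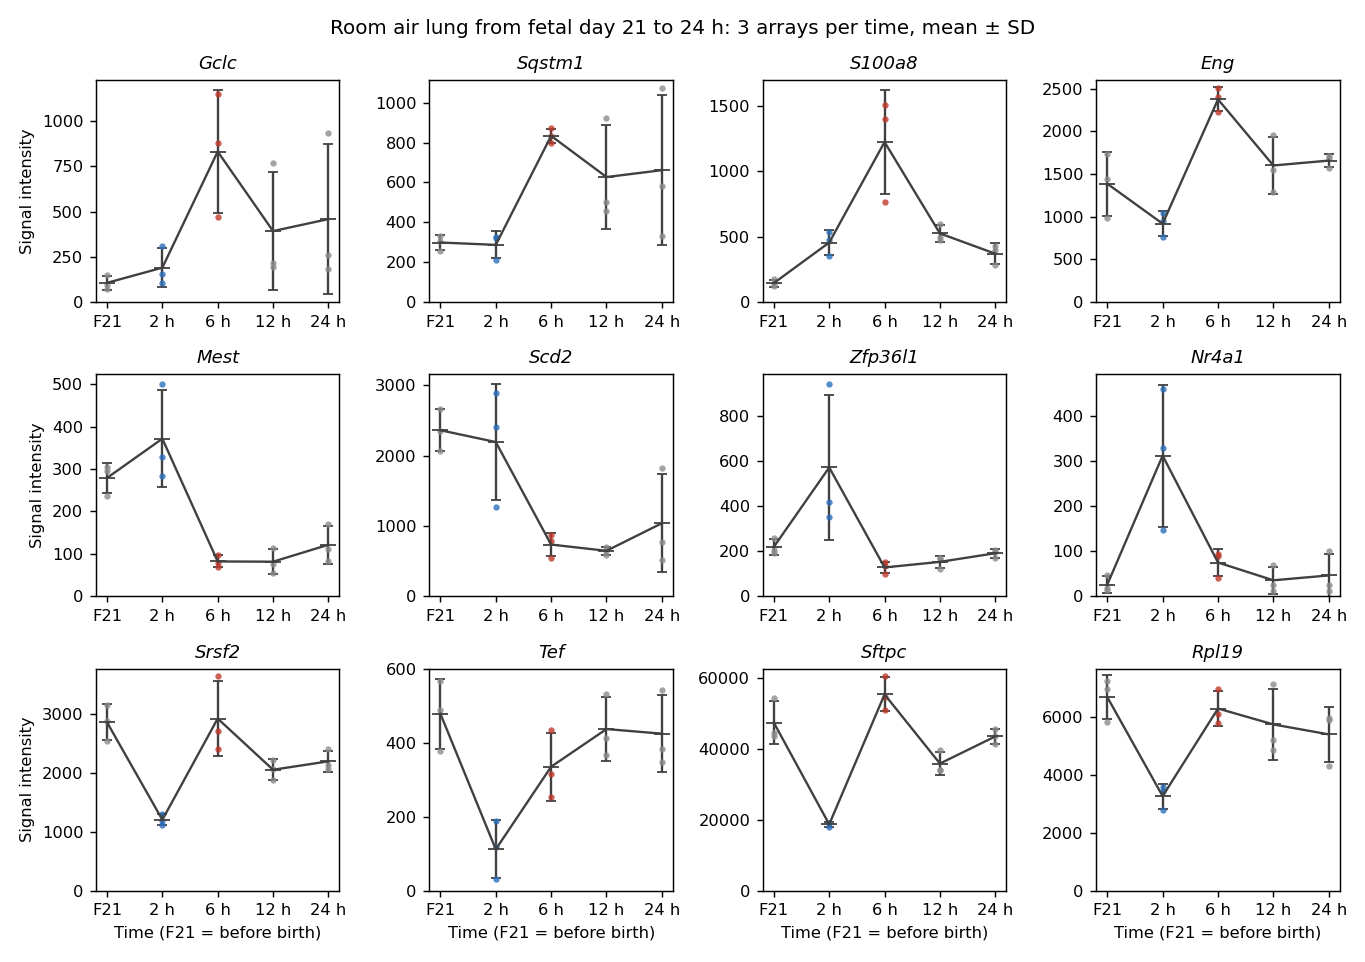
Signal intensity of 12 genes in room air lung at F21, 2 h, 6 h, 12 h and 24 h, with 3 arrays per time as points (blue 2 h, red 6 h, grey the others) and mean ± SD as lines and bars. Gclc, Sqstm1, S100a8 and Eng were highest on average at 6 h, Mest and Scd2 were low from 6 h on, Zfp36l1 and Nr4a1 were highest at 2 h, and Srsf2, Tef, Sftpc and Rpl19 were lowest at 2 h.

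Among the late falls was Mest, an imprinted gene expressed from the paternal copy and linked to fetal growth. It had 79.6, 97.6 and 69.5 at 6 h, against 501, 285 and 328 at 2 h. The groups were far apart (log2 change -2.15 ± 0.34 (SE), adjusted p = 0.000702), and the call held whichever array was left out. Mest did not pass between 2 h and F21 (log2 0.38, adjusted p = 0.625), averaged 81.7 at 12 h and 122 at 24 h, and was below F21 at 12 h (log2 -1.82, adjusted p = 0.0049). The 12 h arrays were used in neither step, but the F21 arrays were shared with the earlier one. Of 23 tested imprinted and IGF genes, Mest fell and Igfbp7, an IGF-binding protein of vessels, rose (log2 change 1.69, adjusted p = 0.0236). Igfbp7 lost its call without 6 h replicate 3 or 2 h replicate 1 or 3 (adjusted p = 0.144 at the highest, without 6 h replicate 3).

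Scd2, the stearoyl-CoA desaturase of developing lung and brain, fell on both of its probe sets, late on 95758_at and receding on 162077_f_at. On 95758_at it had 875, 783 and 551 at 6 h, against 2896, 2413 and 1276 at 2 h. No array at 6 h reached the lowest at 2 h (log2 change -1.52 ± 0.34 (SE), adjusted p = 0.013), and at 12 h the level was -1.86 against F21 (adjusted p = 0.0049). On 162077_f_at it averaged 284 ± 28.0 at 6 h and 997 ± 258 at 2 h (log2 change -1.78, adjusted p = 0.000318), after a rise of 0.86 between F21 and 2 h (adjusted p = 0.0474) and with -0.92 at 6 h against F21 (adjusted p = 0.0716), and the call held in all 6 fits that left out 1 array. The first probe set lost its call without 6 h replicate 3 or 2 h replicate 1 (adjusted p = 0.104 at the highest, without 2 h replicate 1). Lpcat1, which makes the saturated phosphatidylcholine of surfactant, averaged 208 ± 50.1 at 6 h and 429 ± 129 at 2 h (log2 change -1.02, adjusted p = 0.0487), and lost its call without 6 h replicate 1, 2 or 3 or 2 h replicate 1 or 2 (adjusted p = 0.196 at the highest, without 2 h replicate 2). Scd2 and Lpcat1 were the 2 of 27 cholesterol and fatty acid synthesis genes that fell, with none higher and a median of -0.25. In the fatty acid oxidation list, Lipe (hormone-sensitive lipase) rose (log2 change 2.49, adjusted p = 0.0155) and Acads (short-chain acyl-CoA dehydrogenase) fell (log2 change -1.14, adjusted p = 0.0298), out of 20 tested, and a second Acads probe set, 103401_at, had a log2 change of 0.24. The 2 h signals of Lipe were 12.3, 14.7 and 13.4, near the floor of 10, so the size of its rise rests on dim signals. Lipe lost its call without 6 h replicate 2 or 3 or 2 h replicate 1 (adjusted p = 0.075 at the highest, without 2 h replicate 1). Acads lost its call without 6 h replicate 1 or 2 or 2 h replicate 1 or 3 (adjusted p = 0.127 at the highest, without 2 h replicate 1).

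Transcriptional regulators of lung development and chromatin moved both ways, with 6 of 58 tested genes higher, 4 lower and a median of -0.24. Among all 5323 genes 120 were higher and 54 lower, with a median of -0.04. The nuclear receptor Nr2f2 (COUP-TFII), which specifies veins and mesenchyme, had 19.1, 46.8 and 74.6 at 6 h, against 195, 229 and 235 at 2 h. Its probe set, 103052_r_at, is of the less strictly selected _r_at kind described below. All 3 arrays at 6 h were below the 2 h arrays (log2 change -2.43 ± 0.43 (SE), adjusted p = 0.00191), the call held in all 6 fits that left out 1 array, and it was a receding rise (1.75 at 2 h). Elf5, an epithelial ETS factor of the distal airway, had 49.3, 32.8 and 89.3 at 6 h, against 230.4, 148 and 182 at 2 h, also without overlap (log2 change -1.81 ± 0.38 (SE), adjusted p = 0.00837). The nuclear factor I genes Nfib and Nfix, chosen after their values were seen, act in lung maturation (Nfib) and in brain and muscle development (Nfix) and averaged 139.7 and 148 at 6 h, against 321 and 255 at 2 h (log2 -1.14 and -0.79, adjusted p = 0.0173 and 0.0354). Elf5 lost its call without 6 h replicate 2 or 2 h replicate 1 (adjusted p = 0.07 at the highest, without 2 h replicate 1). Nfib lost its call without 6 h replicate 1 or 2 or 2 h replicate 1 or 2 (adjusted p = 0.14 at the highest, without 2 h replicate 1). Nfix lost its call without 6 h replicate 1 or 3 or 2 h replicate 1 or 2 (adjusted p = 0.157 at the highest, without 6 h replicate 1).

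On the rising side, Foxa2, the forkhead factor of airway and alveolar epithelium, averaged 249.8 ± 14.8 at 6 h and 119 ± 19.7 at 2 h (log2 change 1.08, adjusted p = 0.0239), and lost its call without 6 h replicate 1, 2 or 3 or 2 h replicate 1 or 3 (adjusted p = 0.134 at the highest, without 2 h replicate 1). Smarcad1, a chromatin remodeling ATPase, had 65.4, 38.3 and 99.5 at 6 h, against 10.8, 6.6 and 11.6 at 2 h. Its 2 h signals were at or near 10, the value at which low signals were floored, so that the size of the change depends on that floor (log2 change 2.55 ± 0.40 (SE), adjusted p = 0.000702), but the call held whichever array was left out. Hmgn1 and Pura, an architectural chromatin protein and a DNA-binding protein, also passed (log2 0.79 and 1.14, adjusted p = 0.0236 and 0.0128). Crebbp, a histone acetyltransferase, had log2 change 1.80, adjusted p = 0.0474 with 1 high array at 2 h (118.8, inside the 6 h range of 96.6 to 168.8), and lost its call without 6 h replicate 1, 2 or 3 or 2 h replicate 1 or 3 (adjusted p = 0.294 at the highest, without 2 h replicate 1).

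Vascular genes changed in both directions. Eng (endoglin), a TGF-beta co-receptor of endothelium, had 2222, 2504 and 2397 at 6 h, against 758, 1043 and 949 at 2 h. The 6 h arrays were all above the 2 h arrays with little spread (log2 change 1.38 ± 0.25 (SE), adjusted p = 0.00271; 1.03 after loess, adjusted p = 0.0287). Acvrl1 (ALK1), the receptor that signals with endoglin, averaged 994 ± 151 at 6 h and 451 ± 61.3 at 2 h on probe set 100450_r_at (log2 change 1.14, adjusted p = 0.00515), but its other probe sets, 100448_at and 100449_g_at, had log2 changes of 0.31 and 0.01 (adjusted p = 0.812 and 0.989). Both calls held in all 6 fits that left out 1 array. Notch1, which directs arterial identity, was also higher (log2 change 1.07, adjusted p = 0.0163) on 97497_at, while 162204_r_at had -0.72.

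Cav1 (caveolin 1), the coat protein of caveolae in endothelium and alveolar type 1 cells, had 621, 549.9 and 394 at 6 h, against 1222, 1511 and 1309 at 2 h. Its 6 h arrays were all below the 2 h arrays (log2 change -1.39 ± 0.27 (SE), adjusted p = 0.00435), the loess change was -1.60, and the call held in all 6 fits that left out 1 array. The dimmer probe set 97849_at averaged 84.5 at 6 h and 92.7 at 2 h. Cdh5 (VE-cadherin), the adhesion protein of endothelial junctions, averaged 449 ± 66.7 at 6 h and 834 ± 181 at 2 h (log2 change -0.88, adjusted p = 0.0261). In all, 3 of 41 tested endothelial markers rose and 2 fell, with a median of 0.19, against 120 higher and 54 lower of 5323 genes. The summed signal of these markers overlapped (11856 to 12871 at 6 h, 10040 to 12451 at 2 h). Notch1 lost its call without 6 h replicate 3 or 2 h replicate 3 (adjusted p = 0.0897 at the highest, without 2 h replicate 3). Cdh5 lost its call without 6 h replicate 2 or 3 or 2 h replicate 1 (adjusted p = 0.178 at the highest, without 2 h replicate 1). Agt (angiotensinogen) was the 1 of 19 tested vasoactive genes that passed (log2 change 0.96, adjusted p = 0.0381), and lost its call without 6 h replicate 1, 2 or 3 or 2 h replicate 1 or 3 (adjusted p = 0.214 at the highest, without 2 h replicate 3).

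Among the receding falls were abundant transcripts of protein synthesis and respiration. Of 26 tested cytosolic ribosomal protein genes, 6 were higher at 6 h and none lower, and 10 had fallen between F21 and 2 h. The shares over all were 120 higher and 54 lower of 5323 genes at 6 h, and 192 of 6931 probe sets fallen by 2 h. Rpl19 had 5810, 6962 and 6113 at 6 h, against 3462, 3571 and 2774 at 2 h, without overlap (log2 change 0.95 ± 0.20 (SE), adjusted p = 0.00821). The other 5 were Rpl41, Rps3, Rps28, Rps10 and Rpl6, with log2 changes of 0.74 to 0.95. None of the 6 passed after loess, where 2 other ribosomal genes were lower; the median was 0.43 with the authors' scaling, -0.06 after loess and -0.04 after quantile normalization. Rpl41 turned to -0.59 after quantile normalization (adjusted p = 0.0658), and the elongation factor Eef1a1, 0.83 with the authors' scaling (adjusted p = 0.0449), to -0.21 (adjusted p = 0.596). The calls of Rpl41 and Eef1a1 were lost whichever array was left out. Rpl19 lost its call without 6 h replicate 2 or 2 h replicate 3 (adjusted p = 0.0579 at the highest, without 6 h replicate 2). Rps3 lost its call without 6 h replicate 1 or 2 or 2 h replicate 1 or 3 (adjusted p = 0.123 at the highest, without 2 h replicate 3). The part that the lower upper range of the 2 h arrays plays in these rises was not tested.

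Sftpc, the surfactant protein of alveolar type 2 cells and the brightest probe set of the array, had 51117, 54585 and 60597 at 6 h, against 17961, 19130.4 and 19209.6 at 2 h. The groups were far apart (log2 change 1.56 ± 0.26 (SE), adjusted p = 0.00104), and the call held in all 6 fits that left out 1 array, but the change was 0.56 after loess (adjusted p = 0.233) and under 0.01 in size after quantile normalization. Of 15 tested type 2 markers Sftpc rose and Lpcat1 fell. Hba-a1 (alpha globin), at a mean of 34016 at 6 h and 16243 at 2 h (log2 change 1.07, adjusted p = 0.0385), likewise had 0.13 after loess and -0.07 after quantile normalization, and lost its call whichever array was left out.

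Of 57 tested subunits of oxidative phosphorylation, 5 were higher at 6 h and none lower (median 0.19), 3 of them also after loess (median 0.16), and 9 had fallen by 2 h. Over all genes, 120 of 5323 were higher at 6 h and 54 lower (median -0.04), and 192 of 6931 probe sets had fallen by 2 h. Ndufa7, of complex I, had 1710.5, 1900.5 and 1696 at 6 h, against 885, 1054 and 599 at 2 h. Its arrays did not overlap (log2 change 1.10 ± 0.23 (SE), adjusted p = 0.00794), with 0.72 after loess (adjusted p = 0.0401). Ndufb6 had log2 change 0.99, adjusted p = 0.0163 and Ndufa8 log2 change 0.91, adjusted p = 0.037, with 0.82 and 0.88 after loess (adjusted p = 0.0342 and 0.0402). Atp5l and Ndufb5 made up the rest (log2 0.74 and 0.63). Ndufa7 lost its call without 2 h replicate 3 (adjusted p = 0.0642). Ndufb6 lost its call without 6 h replicate 1 or 2 or 2 h replicate 1 or 3 (adjusted p = 0.0925 at the highest, without 6 h replicate 2). Ndufa8 lost its call without 6 h replicate 1 or 2 or 2 h replicate 1, 2 or 3 (adjusted p = 0.191 at the highest, without 6 h replicate 1).

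Recovering genes that stayed past the threshold under loess included a splicing factor, a clock factor and actin. Srsf2, a serine- and arginine-rich splicing factor, had 2416, 2718 and 3652 at 6 h, against 1310.2, 1188 and 1124 at 2 h, and 2866 on average at F21. All 6 h arrays were above all 2 h arrays (log2 change 1.26 ± 0.18 (SE), adjusted p = 0.000422), the loess change was 0.82 (adjusted p = 0.0174), and the call held in all 6 fits that left out 1 array, although its dimmer probe set 95791_s_at had -0.61 (adjusted p = 0.407). Tef, the D-box factor driven by the clock, had 316, 435 and 255 at 6 h, against 118, 188 and 30.8 at 2 h. It was low and scattered at 2 h and its groups did not overlap (log2 change 1.89 ± 0.39 (SE), adjusted p = 0.00821), after a log2 change of -2.42 between F21 and 2 h (adjusted p = 0.000935). Tef lost its call without 6 h replicate 2 (adjusted p = 0.0595). Tef was the only 1 of 27 tested glucocorticoid and circadian genes to pass, with 5 of the list higher and 1 lower at 2 h over F21. At that earlier step 102 of all 6931 tested probe sets were higher and 192 lower.

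Actb (beta actin) had 4361, 6334 and 8509 at 6 h, against 1962, 1996 and 1332 at 2 h on probe set 95705_s_at. It was higher in every 6 h array (log2 change 1.83 ± 0.30 (SE), adjusted p = 0.00104), and 1.39 after loess (adjusted p = 0.0137), but the 12 h mean was 1277, and probe set 101578_f_at gave 0.68 (adjusted p = 0.313). Of 52 smooth muscle and actin cytoskeleton genes 3 rose (Actb, Tmsb10 and Capg) and Cnn2 fell, against 120 higher and 54 lower of 5323 genes. Tmsb10, an actin monomer binder, had log2 change 0.90, adjusted p = 0.0222 and 0.38 after loess (adjusted p = 0.427), and Cnn2, calponin 2, log2 change -1.18, adjusted p = 0.0212. Tmsb10 lost its call without 6 h replicate 2 or 3 or 2 h replicate 1 or 3 (adjusted p = 0.101 at the highest, without 2 h replicate 3). Cnn2 lost its call without 6 h replicate 2 or 3 or 2 h replicate 1 or 2 (adjusted p = 0.142 at the highest, without 2 h replicate 1).

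Genes of myofibroblasts and matrix that the study followed did not pass. Acta2 (smooth muscle actin) had 436, 368 and 298 at 6 h, against 198, 296 and 235 at 2 h, with every 6 h array above every 2 h array (log2 change 0.60 ± 0.35 (SE), adjusted p = 0.404). Tnc (tenascin C) had 109, 78.2 and 74.8 at 6 h, against 54.8, 49.2 and 47.4 at 2 h, also without overlap (log2 change 0.77, adjusted p = 0.394). Col1a1 averaged 1806 at 6 h and 1173 at 2 h on 103709_at (log2 change 0.63, adjusted p = 0.107) and 943 at 6 h and 994 at 2 h on 94305_at. Fn1 (fibronectin) had log2 change 0.20, adjusted p = 0.63, with -0.06 after loess and -0.05 after quantile normalization, and Pcna, the sliding clamp of DNA replication, averaged 146 at 6 h and 146 at 2 h (log2 change 0.00, adjusted p = 0.997).

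Itgb1 (integrin beta 1) split by probe set. Probe set 100123_f_at had log2 change -0.04, adjusted p = 0.971, and 100124_r_at, named after its values were seen, averaged 243 at 6 h and 479 at 2 h and passed (log2 change -0.99, adjusted p = 0.0239). The call of 100124_r_at was lost without 6 h replicate 2 or 3 or 2 h replicate 1, 2 or 3 (adjusted p = 0.123 at the highest, without 6 h replicate 2). Of 63 tested extracellular matrix genes only Fbln2 (fibulin 2) passed, higher at 6 h with a mean of 187 ± 67.9 and 66.4 ± 17.9 at 2 h (log2 change 1.47, adjusted p = 0.0209). Fbln2 lost its call without 6 h replicate 2 or 2 h replicate 1 (adjusted p = 0.136 at the highest, without 2 h replicate 1). Of 14 tested type 1 cell markers 1 rose and 1 fell, with a median of 0.17, and -0.02 after loess. Among all 5323 genes 120 were higher and 54 lower. Krt7, a keratin of simple epithelium, was the marker that rose (log2 change 0.98, adjusted p = 0.0239), but it did not pass after loess (log2 0.77, adjusted p = 0.0805). Krt7 lost its call without 6 h replicate 1 or 2 or 2 h replicate 1, 2 or 3 (adjusted p = 0.109 at the highest, without 6 h replicate 1). None of 48 cell cycle and DNA replication genes passed (median -0.34), and none of 32 hypoxia-inducible and glycolysis genes (median 0.03).

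**Figure D4:**
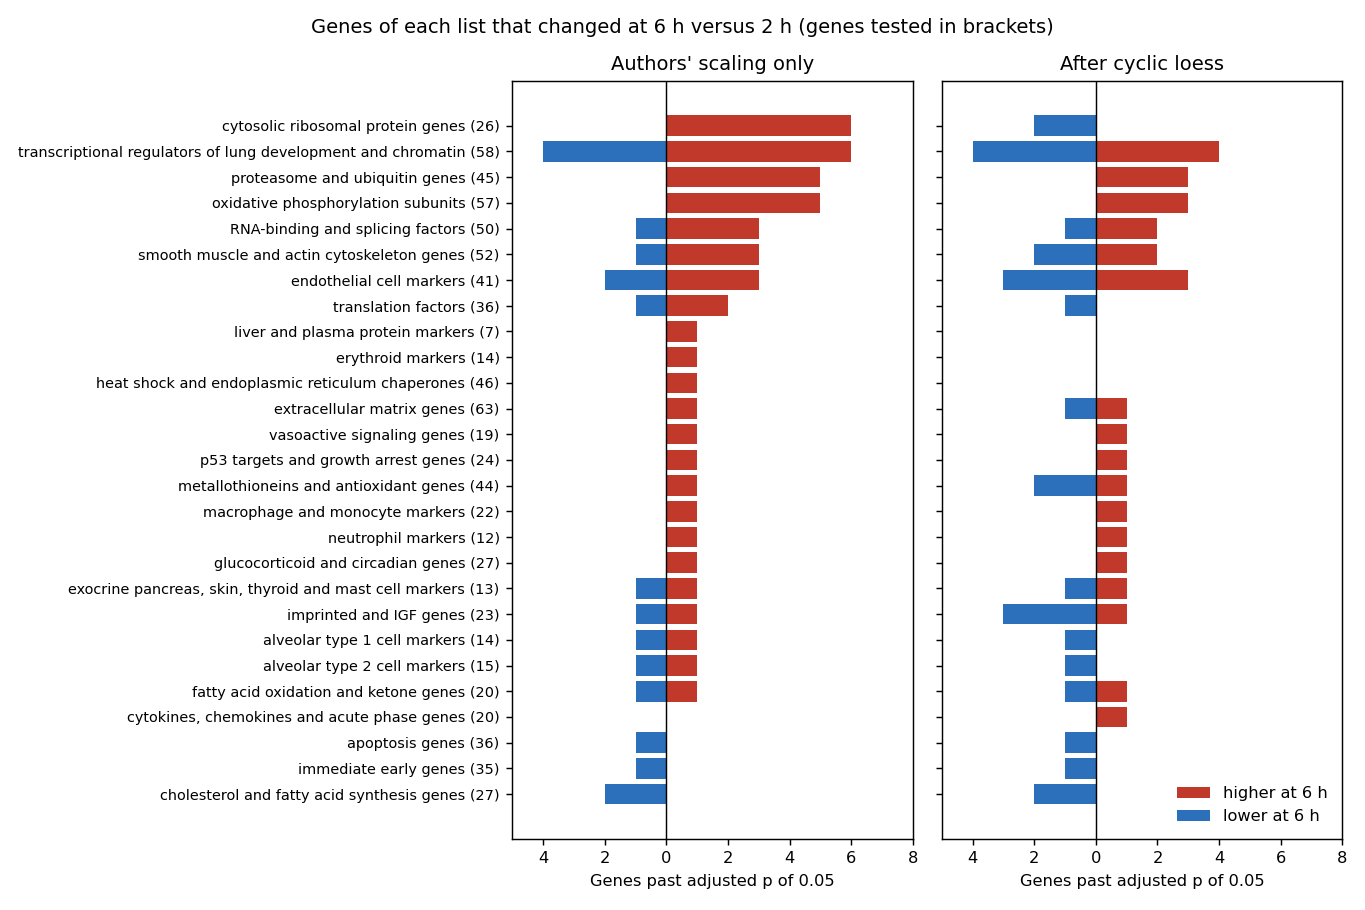
Genes of each list past an adjusted p of 0.05, higher at 6 h (red, right) or lower (blue, left), with the authors' scaling (left panel) and after cyclic loess (right panel); the number of genes tested stands in brackets, and lists with no call are left out. The ribosomal list had 6 higher with the authors' scaling and, after loess, none higher and 2 lower.

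Of the 15 largest falls, 10 came from probe sets of an unusual kind, that of Nr2f2 among them. Names ending in _r_at mark sets for which the maker had to drop some of its probe selection rules, and these were 5.02% of tested probe sets but 22 of the 82 falls (26.8%). As a class 10.6% of them were called, against 2.90% of plainly named sets. Ctrl, a chymotrypsin-like protease of the pancreas, had 8.5, 10.3 and 13.5 at 6 h, against 275, 358 and 307 at 2 h. At 6 h it lay at the floor, so that the fitted change (log2 change -4.80, adjusted p = 0.000422) depends on that floor. Adam28, a metalloprotease of epithelium and lymphocytes, averaged 20.7 at 6 h and 232 at 2 h (log2 change -3.51, adjusted p = 0.00155), and Mep1b, a metalloprotease of kidney and gut brush border, 15.5 at 6 h and 112 at 2 h (log2 change -2.85, adjusted p = 0.00524). Rps28 fell on 98086_r_at (log2 change -3.21, adjusted p = 0.00558), while its probe set 98085_f_at averaged 17708 at 6 h and 9325 at 2 h and rose (log2 0.93, adjusted p = 0.0252). All 4 of these falls held whichever array was left out. Of 59 called genes with several tested probe sets, 4 were called at more than 1 and 26 had all their probe sets changing in the same direction.

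Further large falls were those of B3gnt2, an N-acetylglucosaminyltransferase (9.1 at 6 h and 139 at 2 h on 161267_f_at, at the floor at 6 h, log2 change -3.69, adjusted p = 0.00335), whose probe set 160137_at had the opposite sign (169.7 at 6 h and 65.4 at 2 h, log2 1.77, adjusted p = 0.0584). Babam1, Dao, Serf1, Hoxa6, Pla2g4f, Shkbp1, Slc23a3 and Tmem129 made up the remaining largest falls, with log2 changes of -3.07 to -2.19, and each lost its call in 3 to 6 of the fits that left out 1 array. Other probe sets of these genes were smaller in change and did not pass: 103894_at of Shkbp1, the brighter one, averaged 711 at 6 h and 845 at 2 h (log2 -0.25), 98800_at of Slc23a3 had log2 -1.16 and 97392_at of Tmem129 -1.27. Among translation and RNA factors Eif4a2, an RNA helicase of translation initiation, had 243, 238 and 177 at 6 h, against 592, 594 and 475 at 2 h, with every 6 h array below every 2 h array (log2 change -1.34 ± 0.29 (SE), adjusted p = 0.00964). Ddx17, a helicase of splicing and transcription, averaged 179.9 at 6 h and 476 at 2 h (log2 change -1.37, adjusted p = 0.0314). Ncl (nucleolin) and Snrpb, a core spliceosome protein, were higher at 6 h (log2 0.90 and 0.77, adjusted p = 0.0218 and 0.00821), but not after loess (adjusted p = 0.0761 and 0.55). Htra2, a mitochondrial protease, was the 1 of 36 tested apoptosis genes that passed, lower on 161446_r_at (log2 change -0.83, adjusted p = 0.0359), while 104102_at had 0.90 (adjusted p = 0.481). Eif4a2 lost its call without 2 h replicate 1 (adjusted p = 0.0609). Ddx17 lost its call without 6 h replicate 1, 2 or 3 or 2 h replicate 1 or 2 (adjusted p = 0.126 at the highest, without 2 h replicate 1). Htra2 lost its call without 6 h replicate 1, 2 or 3 or 2 h replicate 1 or 3 (adjusted p = 0.162 at the highest, without 2 h replicate 3).

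Large rises outside the lists included Tspan4, a tetraspanin, with 249, 291 and 161 at 6 h, against 22.5, 87.3 and 15.5 at 2 h and a scattered 2 h group below every 6 h array (log2 change 2.86 ± 0.46 (SE), adjusted p = 0.000936). Lrrfip2, an activator of Wnt and Toll-like receptor signaling, had 184, 152 and 164 at 6 h, against 20.3, 26.1 and 29.7 at 2 h, with tight, separate groups (log2 change 2.73 ± 0.42 (SE), adjusted p = 0.000702). Both calls, and that of 1110032A03Rik (log2 change 2.80, adjusted p = 0.00356), held whichever array was left out. The 2 h signals of 1110032A03Rik were 20.7, 2.7 and 16.6, the lowest under the floor of 10, so the size of its rise depends on that floor. Its probe set, 104314_r_at, is of the _r_at kind described above, as is that of Lor. Of the _r_at sets 4.31% rose, against 2.06% of plainly named sets. Lor, loricrin of the skin barrier, rose on 92624_r_at with the smallest adjusted p of the genes named here, at 394, 459 and 618 at 6 h, against 154, 133 and 147 at 2 h (log2 change 1.73 ± 0.22 (SE), adjusted p = 6.93e-05), and held in all 6 fits. Las1l, Slc27a1, Chga, Thrap3, Mybbp1a, Akirin1 and Slc25a5 rose by 2.06 to 2.82 on the log2 scale, but each of them lost its call in 5 or 6 of the fits that left out 1 array. The brighter probe set 100618_f_at of Slc25a5 averaged 349.7 at 6 h and 462 at 2 h, the opposite sign (log2 -0.40, adjusted p = 0.257), while 100619_r_at had 0.59, 94261_at of Thrap3 0.66 and 97267_at of Akirin1 0.80, none of which passed. The 2 h signals of Las1l (8.3 to 11.4) and Akirin1 (7.1 to 10.1) lay at the floor, so that the sizes of these rises depend on it.

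The same step in 10% oxygen was measured on other arrays, and only 6 probe sets passed there (0.0866%). None of the 240 was among those 6. Of the 158 rises, 80 had a positive change in 10% oxygen (median log2 0.0037), and of the 82 falls 43 a negative one (median -0.03). The 10% oxygen groups were noisier, with correlations between replicates of 0.749 to 0.770 at 6 h and 0.796 to 0.816 at 2 h, against 0.896 to 0.927 at 6 h and 0.922 to 0.950 at 2 h in room air. The 3′ to 5′ signal ratio of Gapdh, which is higher where RNA is degraded, was 1.37 to 5.82 at 6 h and 1.81 to 5.39 at 2 h in 10% oxygen, against 0.837 to 1.04 at 6 h and 0.770 to 0.873 at 2 h in room air, and its part in the oxygen differences was not tested. Tested directly, the step differed between room air and 10% oxygen for 50 probe sets (0.721%), 31 with a higher change in room air and 19 with a lower one, and 1012 passed an unadjusted p under 0.05. They include 23 of the 158 rises and 9 of the 82 falls. The count was 18 without room air 2 h replicate 1, 5 without room air 2 h replicate 3, 8 and 13 without room air 6 h replicates 1 and 2, 17 without 10% oxygen 2 h replicate 1 and 77 without 10% oxygen 6 h replicate 3.

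Npc2 had 8158, 7084 and 11275 at 6 h, against 9903, 9803 and 12156 at 2 h in 10% oxygen, where the groups overlapped, a difference in step of 1.79 ± 0.35 (SE, adjusted p = 0.0205). Each of its 10% oxygen signals was above every room air 2 h signal. Srsf2 had 1865, 2701 and 1651 at 6 h, against 2146, 2194 and 2175 at 2 h in 10% oxygen, also overlapping, a difference of 1.36 ± 0.26 (SE, adjusted p = 0.0205), and Lor and Cuta, a widely expressed protein of unsettled function, differed by 2.01 ± 0.31 (SE, adjusted p = 0.0015) and 2.77 ± 0.49 (SE, adjusted p = 0.0105). Smarcad1 differed by 2.89 ± 0.57 (SE, adjusted p = 0.0208) and Actb by 2.27 ± 0.43 (SE, adjusted p = 0.0205). Falls that differed were those of Zfp36l1, with 140.3, 208 and 324 at 6 h, against 154, 222 and 246 at 2 h in 10% oxygen and a difference of -2.09 ± 0.45 (SE, adjusted p = 0.029), and Mest, with 112, 129 and 166 at 6 h, against 143, 133 and 85 at 2 h and a difference of -2.33 ± 0.48 (SE, adjusted p = 0.0215). Both genes overlapped between times in 10% oxygen. Tyro3, a receptor tyrosine kinase, had the largest difference, 4.86 ± 0.93 (SE, adjusted p = 0.0205), with 16.7, 13 and 16.8 at 6 h, against 101, 106 and 105 at 2 h in 10% oxygen (log2 -2.75, adjusted p = 0.0809) and no call in room air (log2 change 2.11, adjusted p = 0.0788).

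**Figure D5:**
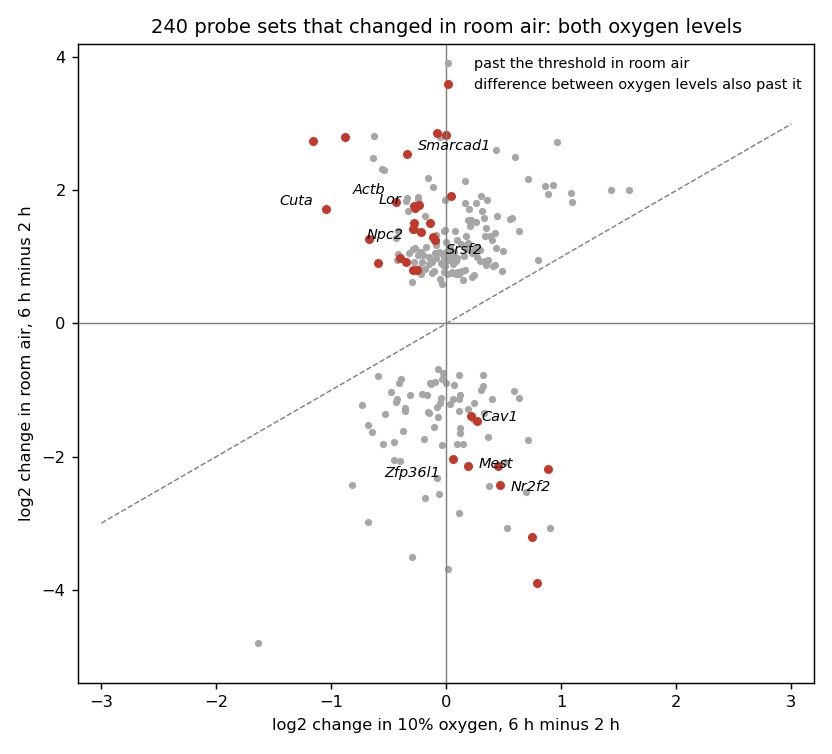
Log2 change between 6 h and 2 h of the 240 changed probe sets in room air (y axis) and in 10% oxygen (x axis), 1 point per probe set, each change from 3 arrays per time; red points also passed the test of the difference between oxygen levels, and the dashed line marks equal change. The room air values passed the threshold by selection; the 10% oxygen values scatter about 0, with medians of 0.0037 for the rises and -0.03 for the falls.

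In liver, 4 of 7639 tested probe sets passed between 6 h and 2 h (0.0524%). The step differed between lung and liver for 41 (0.537%), 29 with a higher and 12 with a lower change in lung, and 900 passed an unadjusted p under 0.05. Foxa2, also a factor of hepatocytes, had 30.5, 21.5 and 44.6 at 6 h, against 90.7, 76.7 and 55.9 at 2 h in liver, lower at every 6 h array, and its difference in step was 2.32 ± 0.42 (SE, adjusted p = 0.00677). Cav1, dim in liver (54.2, 71.5 and 46.7 at 6 h, against 32.7, 40.8 and 43 at 2 h), differed by -1.94 ± 0.38 (SE, adjusted p = 0.0106). Srsf2 (2326, 1769.8 and 1995 at 6 h, against 1568, 2487 and 2197 at 2 h) and Tmsb10 (1166, 984 and 1074 at 6 h, against 1668, 1425 and 1686 at 2 h) differed by 1.28 ± 0.26 (SE, adjusted p = 0.0145) and 1.47 ± 0.27 (SE, adjusted p = 0.00716). Zfp36l1 (66.5, 163 and 128 at 6 h, against 108, 125 and 91.7 at 2 h, overlapping) differed by -2.09 ± 0.47 (SE, adjusted p = 0.0287). The count was 20 without lung 2 h replicate 1, 19 without lung 2 h replicate 3, 23 and 20 without lung 6 h replicates 1 and 2, and 27 without liver 6 h replicate 1.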

How the data were processed

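Total RNA of snap-frozen whole lung or liver was hybridized to Affymetrix MGU74Av2 arrays. The authors deposited signal intensity per probe set, made with MAS 5.0 and scaled to a target of 100 per array; detection calls were not used here. Signals under 10 were set to 10 and log2 values taken. Of 12488 probe sets, 66 controls were left out, and a probe set was tested where it ranked in the top 40% of its array in at least 3 lung arrays (6931). Platform annotation gave 10855 probe sets 1 gene symbol, 396 several and 1237 none, and genes were named only from the first kind.

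All 24 lung arrays (8 groups, 16 residual degrees of freedom) were fitted in limma 3.58.1 (R 4.3.3, lmFit, contrasts, eBayes with trend), with Benjamini-Hochberg adjustment over all tested probe sets and a threshold of 0.05. The step was set against 10% oxygen by an interaction in that fit, and against liver by one over all 33 arrays (7639 probe sets, 22 residual degrees of freedom). With 3 arrays per group an exact permutation test of 1 gene cannot go below 0.1, so none was run. In simulated data with 200 changed probe sets, 14% of log2 changes of 1 and 66.5% of changes of 2 were recovered for this comparison. The number of arrays limits the precision.

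Gene lists (38, with 1009 genes tested) took the brightest tested probe set of each gene. Every list count is to be read against all 5323 genes treated so, of which 120 were higher and 54 lower at 6 h (median -0.04). Genes are named by this rule: the 15 largest rises and falls past the threshold without overlap, up to 3 called members per list with the smallest p, genes the study named, and the 5 smallest p of each interaction. Others were chosen after their values were seen: those said to be so, list members beyond the first 3, and genes with promoters shown. Members, lists and tests were chosen with earlier results of these data known. Sample numbers did not pair the groups (correlation of deviations 0.0087, 0.061 and 0.151). Alternatives tried were other floors, normalizations, filters, sample sets, covariates, array weights, the methods' two-sample t-test, a replicate block and leaving out each array. Promoters are RefSeq windows, searched on both strands for the CRE (TGACGTCA), the E-box (CACGTG), the D-box (TTATGTAA), the MRE core (TGCNCNC) and, by name alone, the NF-kB site and the GRE.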

Additional observations from a re-analysis of the deposited data

Results flagged for a closer look

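The step between 6 h and 2 h differed between room air and 10% oxygen for 50 probe sets and between lung and liver for 41, each by a direct limma test of the difference with Benjamini-Hochberg adjustment. Values below are the log2 change in room air minus that in 10% oxygen, for the named genes past the threshold. Positive differences were those of Lor (2.01), Cuta (2.77), Srsf2 (1.36), Actb (2.27), Tyro3 (4.86), Npc2 (1.79), Smarcad1 (2.89), Tmsb10 (1.5), 1110032A03Rik (3.67), Tspan4 (2.94) and Ndufb6 (1.40). Negative ones were those of Mest (-2.33), Nr2f2 (-2.90), Zfp36l1 (-2.09), Rps28 on 98086_r_at (-3.96), Cav1 (-1.60) and Serf1 (-3.08).

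For lung minus liver the differences were 2.32 for Foxa2, 1.63 for Lor, 1.47 for Tmsb10, 1.28 for Srsf2, 2.80 for Tspan4, 2.28 for Smarcad1 and 1.37 for Npc2. They were -4.08 for Mep1b, -1.94 for Cav1, -4.63 for Ctrl, -3.59 for Slc23a3, -3.35 for Elf5 and -2.09 for Zfp36l1. Every value shares the 2 h room air lung arrays, whose highest signals and BioB spike were lower than at 6 h. The 10% oxygen arrays had the higher Gapdh 3′ to 5′ ratios, and the part of either was not tested.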

How the results depend on the processing

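The 240 calls of 6 h versus 2 h became 405 with those 2 groups alone, 423 with room air lung only, 1361 with array weights, 493 and 497 by the methods' t-test at their threshold on log2 and linear signals and 40 after Benjamini-Hochberg adjustment, and 66 to 177 without 1 array; other planned settings gave 163 to 306. Alternatives chosen after seeing the data gave 378 (room air lung with loess), 55 (BioB signal as a covariate) and 130 (plainly named probe sets only). The share of calls that were higher was 65.8%, and 58.7% after quantile, 54.7% after loess, 51.9% with array weights, 71.8% with the top 30% by signal, 76.4% with the BioB covariate and 55.3% to 74.0% without 1 array. The oxygen difference (50) gave 24 with its 4 groups alone, 30 with the replicate block and 5 to 77 without 1 array. The liver difference (41) gave 72 with its 4 groups alone, 27 with no filter and 19 to 52 without 1 array. With the replicate block 204 probe sets passed between 6 h and 2 h and 42 in the liver difference; sample numbers are not known to mark a shared litter or batch. Of 83 called named probe sets, 65 kept their call after loess, 64 after quantile, 73 with the block, 59 with no filter, 17 with the BioB covariate, and 23 whichever array was left out; the cause was not tested.

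Signs turned for Rpl41 (-0.59), Eef1a1 (-0.21), Hba-a1 (-0.0716) and Fn1 (-0.0491) under quantile, Fn1 under loess (-0.0598, also in room air lung only, -0.0598), Cdkn1a (-0.44) and Actb 101578_f_at (-0.81) with BioB, Itgb1 100123_f_at with array weights (0.0877), BioB (1.05) and without 6 h replicate 3 (0.40) or 2 h replicate 2 (0.0353; -0.42 to 0.40 without 1 array), and Pcna with array weights (-0.13), the Gapdh ratio as a covariate (-0.0458) and without 6 h replicate 1 or 2 or 2 h replicate 2 or 3 (-0.12 to 0.19 without 1 array). Dim probe sets near the floor of 10 have changes whose size rests on it.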

Other observations

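Among other gene groups, 21 interferon response genes had a median log2 change of 0.20 with none past the threshold, 12 airway club and ciliated cell markers -0.25 with none, and 20 lung liquid clearance and ion transport genes -0.05 with none. Apoe, the lipid carrier of macrophages and liver, averaged 4114 ± 943 at 6 h and 1982 ± 1310.4 at 2 h (SD, n = 3; log2 change 1.22, adjusted p = 0.0481 by limma), with 0.76 after loess (adjusted p = 0.225), and lost its call without 6 h replicate 1 or 2 or 2 h replicate 1 or 3 (adjusted p = 0.24 at the highest, without 2 h replicate 3). The letters of the glucocorticoid response element occurred in 1 of 123 windows of named genes, that of Sgk1, and in 0.009% of all windows.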
